A study of Mus musculus with 29 samples.

Results

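The genes Nfkbia, Nfkbid, Nfkbiz, Nfkb1, Tnfaip3, Gadd45b and Ier3 were followed across every cell type of a single-cell RNA survey of stroke in mouse brain and blood. These 7 genes, of 27827 genes listed in the deposited tables, were chosen by name with earlier results of these data known. They were picked because NF-kB switches them on and several of their products act back on it. Their counts were summed over the cells of one parent type in one library and scaled to 1000000 counts of that sum (CPM), so that each value has 1 library behind it. The survey holds 29 Drop-seq libraries from C57BL/6J mice, in which stroke was produced by blocking the middle cerebral artery for a time and sham mice had surgery without the blockage.

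Young mice were males of 8-10 weeks, with 4 brain libraries in each of the groups day 2 sham, day 2 stroke and day 14 stroke, and with 4, 4 and 3 blood libraries. Aged mice were 17-20 months old and gave brain libraries alone. Their day 2 sham group has 1 male and 1 female library, their day 2 stroke group 1 male and 2 female libraries, and their day 14 stroke group 1 female library. No sham mice were labelled day 14, so stroke at day 14 was compared with sham at day 2 and time since surgery cannot be told apart from stroke there. Each brain library pooled 4 to 5 hemispheres digested with papain in the presence of actinomycin D, which blocks new transcription, a P2X7 antagonist and an NMDA receptor blocker, and was sorted for CD45high cells, microglia and endothelial cells. Each blood library pooled 2 mice, with actinomycin D and lysis and depletion of red cells but no digestion, so tissue and preparation cannot be told apart when brain is compared with blood.

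NF-kB is a family of dimeric transcription factors that rest in the cytoplasm, bound by inhibitors named IkB. When receptors for cytokines, danger signals or microbial products are engaged, a kinase complex marks the bound inhibitor for destruction and the dimer enters the nucleus, where it induces inflammatory genes together with the genes of its own brakes. Nfkbia encodes IkB-alpha, the inhibitor that is degraded and quickly made anew; Nfkbid and Nfkbiz encode nuclear IkB proteins (IkBNS and IkB-zeta) that tune which targets are transcribed; Nfkb1 encodes the p105 precursor of the p50 subunit. Tnfaip3 encodes A20, an enzyme that edits ubiquitin chains on the signalling complexes upstream. Gadd45b is a stress-induced protein that restrains JNK signalling, and Ier3 (IEX-1) is an immediate early regulator of cell survival.

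The genes lie on 6 chromosomes of the mouse genome in GENCODE vM21 on GRCm38, the build that corresponds to mm10. Nfkbia is at chr12:55489410-55492647 on the minus strand, Nfkbid at chr7:30421732-30428746 on the plus strand, and Nfkbiz at chr16:55811375-55838899 on the minus strand. Nfkb1 is at chr3:135584655-135691547 on the minus strand, Tnfaip3 at chr10:19000910-19015657 on the minus strand, Gadd45b at chr10:80930073-80932204 on the plus strand and Ier3 at chr17:35821684-35822923 on the plus strand. All are protein-coding, and Tnfaip3 and Gadd45b share a chromosome.

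Because the genes were chosen as NF-kB targets, the start regions of those with RefSeq promoter windows (GRCm38.p6, 250 bases before to 50 after a start) were searched for 2 forms of the kappaB motif on both strands. The motifs were GGNNTTTCC and the kappaB consensus of 10 letters, which overlap when a site fits both. Of the 7 genes, 5 had windows, 8 windows in all; Nfkb1 and Nfkbiz are named only. At least 1 match lay in 4 windows, 1 each of Nfkbia, Nfkbid, Tnfaip3 and Ier3, and none in that of Gadd45b. Over all 32851 windows of 27025 genes, 5.82% held GGNNTTTCC, 8.46% the consensus and 12.8% either. The stretches below carry 9 of the 11 matches found, counted for each form of the motif, the other two being matches of the consensus alone, in Nfkbid at -181 and in Tnfaip3 at -125. They are written 5′ to 3′ on the gene's strand with the printed matches in capitals; positions are counted from the RefSeq start.
Nfkbia, chr12:55492648-55492897, minus strand, the 250 bases before the gene, with matches beginning at -178 and -29: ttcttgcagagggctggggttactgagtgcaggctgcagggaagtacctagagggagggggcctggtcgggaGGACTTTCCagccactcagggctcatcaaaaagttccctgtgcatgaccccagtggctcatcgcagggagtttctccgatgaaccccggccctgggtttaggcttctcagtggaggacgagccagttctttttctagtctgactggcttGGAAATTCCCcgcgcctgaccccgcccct
Ier3, chr17:35821463-35821683, plus strand, the 221 bases before the gene, with matches beginning at -139 and -92: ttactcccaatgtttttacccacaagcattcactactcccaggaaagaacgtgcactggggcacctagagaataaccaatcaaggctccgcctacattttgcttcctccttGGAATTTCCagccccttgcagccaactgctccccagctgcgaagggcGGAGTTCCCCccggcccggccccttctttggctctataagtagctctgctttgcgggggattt
Tnfaip3, chr10:19015411-19015440, minus strand, before the RefSeq start and inside an intron of the longer GENCODE gene, with matches beginning at -24 and -12: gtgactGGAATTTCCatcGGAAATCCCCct
Nfkbid, chr7:30422171-30422200, plus strand, inside a GENCODE intron, with the match beginning at -226: ccccgccctGGGACTTCCCagagcaccact
A match describes these letters only; binding was not measured.

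The libraries held 1143 to 5121 cells in brain (819438 to 5855047 counts), and 2360 to 6328 cells in blood (966914 to 5232662 counts). Per cell, library medians were 321 to 1363 counts for the brain and 341 to 694 for the blood. Any pair of libraries shared at most 7 cell barcodes. Young brain libraries fell into those with a median mitochondrial share of 0.235 to 0.559% (sham replicate 1, day 2 replicates 1 and 2, day 14 replicates 1 and 2) and those with 1.67 to 3.38% (the other 7). Comparisons between young brain groups are also given within the latter where that alters them. The comparisons of brain with blood, the interactions and the aged comparisons were not run by this grouping. The authors' parent types carried their own marker genes highest of the lists compared, except border-associated macrophages and dendritic cells, in which macrophage genes were higher, and some small or mixed types. Nothing in the labels states how mice were divided between libraries beyond the pools, so p-values measure the spread between these libraries.

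Over all young brain libraries, sham and stroke together, granulocytes had the highest median for 5 of the 7 genes among the 9 types with enough libraries to be ranked. Endothelial cells and B cells were at or near 0 for Nfkbid and Tnfaip3 respectively. The type with the highest median over young brain libraries was the granulocytes for Nfkbia (8528 CPM; range 1240 to 15553), Nfkbid (420.0; 25.2 to 1144), Nfkbiz (1728; 814 to 4741), Tnfaip3 (274; 21.1 to 936) and Gadd45b (1319; 67.8 to 5307). It was the border-associated macrophages for Ier3 (1110; 426 to 1798) and the dendritic cells for Nfkb1 (142; 73.7 to 189.8). These medians pool sham and stroke, and by value the order within sham was another. There the highest medians were in monocyte-derived cells for Nfkbia (4432, granulocytes 1758), in dendritic cells for Nfkbid (164, granulocytes 75) and Gadd45b (509, granulocytes 157), in border-associated macrophages for Nfkbiz (3203, granulocytes 1194) and Ier3 (1387), and in T cells for Tnfaip3 (292, granulocytes 45.3) and Nfkb1 (232).

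For Nfkbia the medians then ran through monocyte-derived cells (4284), border-associated macrophages (2613), dendritic cells (2038), T cells (1651), endothelial cells (1540), NK cells (1182) and microglia (1066) to B cells (585). For Nfkbid they fell off from B cells (165), border-associated macrophages (142), dendritic cells (128) and monocyte-derived cells (119.7) to microglia (76.5), T cells (69.2), NK cells (67.2) and endothelial cells (0.14). Endothelial cells were thus the type in which this nuclear IkB was barely detected. For Nfkbiz the next medians were border-associated macrophages (1480) and monocyte-derived cells (998), then T cells (514), dendritic cells (505), NK cells (370.5), microglia (332), B cells (78) and endothelial cells (47.4). Nfkb1 had the narrowest range of medians, with T cells at 124, NK cells 107, microglia 93.8, monocyte-derived cells 82.2, border-associated macrophages 75.6, endothelial cells 50.7, granulocytes 45.1 and B cells 41.9.

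Tnfaip3 had its second highest median in T cells (259), followed by NK cells (224), monocyte-derived cells (136), border-associated macrophages (111), dendritic cells (64.8), microglia (46), endothelial cells (9.37) and B cells (0). Gadd45b followed in monocyte-derived cells (512), border-associated macrophages (372), dendritic cells (354), T cells (144), microglia (113), B cells (77), endothelial cells (53.2) and NK cells (47.8). Ier3 followed in granulocytes (1074), monocyte-derived cells (944), endothelial cells (537), microglia (488), dendritic cells (139.9), T cells (20.6), NK cells (14.7) and B cells (4.33). Among the 9 types ranked, Ier3 was thus a myeloid and endothelial transcript here, at the lowest levels in the lymphocytes. Types with fewer libraries were not ranked. Of these, mural cells had Ier3 at 108 and 921 CPM in 2 young sham libraries and at 421 in 1 young day 2 library.

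Most neighbours in these orders could not be separated. Among 56 neighbouring pairs in brain, an exact sign-flip permutation test over libraries with Benjamini-Hochberg adjustment separated 3: Nfkbiz was higher in monocyte-derived cells than in T cells in 11 of 11 libraries (adjusted p = 0.0182), Tnfaip3 higher in microglia than in endothelial cells in 12 of 12 (adjusted p = 0.0137), and Ier3 higher in microglia than in dendritic cells in 12 of 12 (adjusted p = 0.0137). NK cells reached 20 cells in 6 young brain libraries and B cells in 9, which limits their neighbours.

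In blood the order was another. Nfkbia had medians of 670.0 CPM in B cells, 646 in eosinophils and basophils, 508 in monocytes, 466 in neutrophils, 345 in T cells, 314 in dendritic cells and 223 in NK cells. Nfkbiz (136) and Gadd45b (126) were highest in neutrophils, Nfkb1 in dendritic cells (335), and Ier3 in eosinophils and basophils (1233), whose 7 libraries of 20 to 92 cells ran from 280.2 to 3115, followed by neutrophils (134), monocytes (21.7) and T cells (6.16). Nfkbid did not pass 28.6 (NK cells) and Tnfaip3 did not pass 26.7 (NK cells) in any blood type's median. Of 39 neighbouring pairs 3 were separated by the same exact permutation test: Nfkbid in monocytes over T cells (adjusted p = 0.019), Ier3 in neutrophils over monocytes (adjusted p = 0.019) and Ier3 in T cells over B cells (adjusted p = 0.0254). Dendritic cells, and eosinophils and basophils, reached 20 cells in fewer blood libraries than the other types. With so few pairs the exact test cannot give a low p, so their unseparated neighbours are not shown to be alike.

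**Figure D1:**
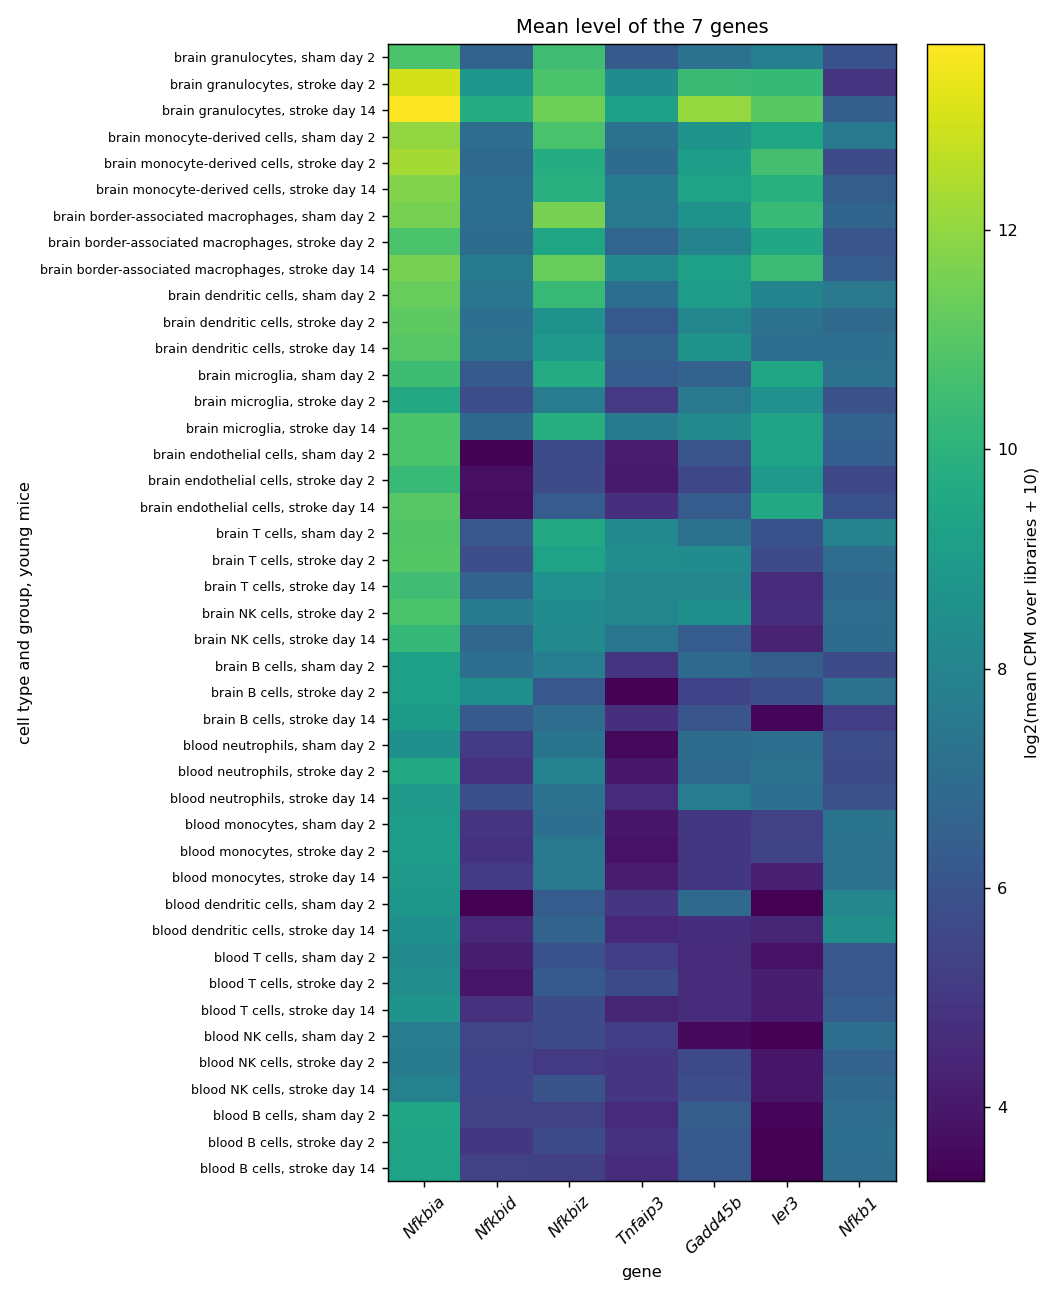
Mean level of each of the 7 genes (columns) over the young libraries of a cell type and group (rows), with colour for log2(mean CPM + 10). Granulocytes of stroke brain are brightest for Nfkbia and Gadd45b, and the blood B cell rows are among the darkest for Ier3.

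Granulocytes of the brain had the largest number of called genes after stroke among the young brain types. At day 2, 4 of the 6 genes that could be tested rose against sham, and at day 14, 5 of 6 did, among them the IkB gene Nfkbia and the stress gene Gadd45b. The calls come from edgeR's quasi-likelihood test over all genes with Benjamini-Hochberg adjustment at 0.05, and Nfkb1, at 0 to 116 CPM, was below its filter. A gene can pass that filter through the stroke libraries alone. Sham Nfkbid, for example, was at 25.2 to 180.0 CPM, in part within the range of Nfkb1. Which genes were tested thus depends on the stroke levels themselves, for the set and for all genes. Over the 994 genes tested in these cells 8.35% were called at day 2 (5.53% higher) and 26.1% at day 14 (129 genes higher and 130 lower). The median log2 change of the 6 genes was 2.10 at day 2 and 2.73 at day 14, beside -0.01 and -0.06 over all genes.

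The inhibitor Nfkbia stood at 2125, 1240, 2176 and 1392 CPM in sham, at 8796, 8259, 6836 and 9737 at day 2 and at 15553, 15061, 8858 and 13710 at day 14. Every stroke library lay above every sham library, while the 2 stroke times overlapped. Its log2 change was 2.10 ± 0.32 (SE) at day 2 (4.29-fold, edgeR adjusted p = 0.000718) and 2.55 ± 0.33 at day 14 (edgeR adjusted p = 1.45e-05).

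Of the nuclear IkB genes Nfkbid was called and Nfkbiz was not. Nfkbid had 180.0, 25.2, 94.1 and 55.9 CPM in sham, 521, 353, 406 and 434 at day 2 and 1137, 1144, 667 and 488 at day 14. Its sham and stroke libraries did not overlap. The log2 change was 2.11 ± 0.49 at day 2 (edgeR adjusted p = 0.0106) and 2.83 ± 0.48 at day 14 (edgeR adjusted p = 0.000251); leaving out sham replicate 2 or 4 ended the day 2 call, at adjusted p = 0.0643 and 0.0633. Nfkbiz had 814, 895, 2618 and 1493 CPM in sham, 1656, 1435, 1919 and 1801 at day 2 and 2353, 2393, 1432 and 4741 at day 14. These ranges overlap at both times. Neither difference passed the test, at 0.09 ± 0.40 (edgeR adjusted p = 0.924) and 0.57 ± 0.40 (edgeR adjusted p = 0.327).

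Tnfaip3, the ubiquitin editor, had 149, 40.3, 21.1 and 50.2 CPM in sham, 462, 414, 282 and 75.1 at day 2 and 849, 936, 267 and 375 at day 14. At day 2 replicate 4 lay within the sham range, and at day 14 no library did. The log2 difference of 1.86 ± 0.67 at day 2 was not called (edgeR adjusted p = 0.0988) and that of 2.63 ± 0.64 at day 14 was (edgeR adjusted p = 0.00547). With the mitochondrial grouping as a term the day 2 difference of 1.64 was called too (edgeR adjusted p = 0.032), as it was with the replicate block (2.08, edgeR adjusted p = 0.0242).

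Gadd45b had 149, 164, 172 and 67.8 CPM in sham, 1487, 1192, 1435 and 1203 at day 2 and 3787, 5307, 4464 and 3650 at day 14. The 3 groups did not overlap at all. It rose by 3.03 ± 0.35 on the log2 scale at day 2 (8.19-fold, edgeR adjusted p = 6.02e-05) and by 4.51 ± 0.36 at day 14 (22.8-fold, edgeR adjusted p = 1.6e-07). It was the gene of the set called between the stroke times, higher at day 14 by 1.48 ± 0.31 (edgeR adjusted p = 0.00854), where 4.23% of genes were called and 1.81% higher (1 of 6 here). Leaving out day 2 replicate 4 ended that call (adjusted p = 0.0515), and so did leaving out the low-count filter (1.41, adjusted p = 0.583).

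Ier3 had 260.0, 237, 178 and 176 CPM in sham, 1421, 1869, 800.2 and 826 at day 2 and 2272, 2705, 1323 and 2104 at day 14. Again no stroke library reached down to sham, and the stroke times overlapped. Its log2 change was 2.25 ± 0.38 at day 2 (edgeR adjusted p = 0.00105) and 2.84 ± 0.39 at day 14 (edgeR adjusted p = 2.53e-05).

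**Figure D2:**
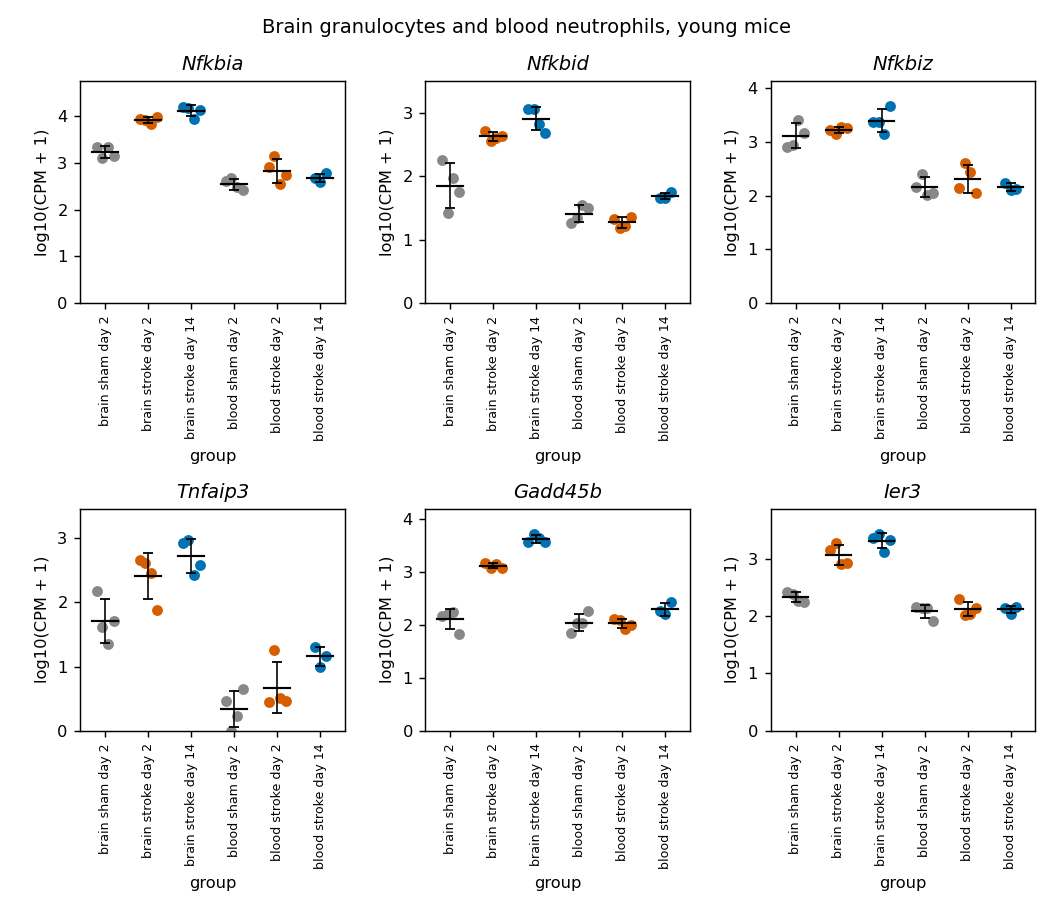
Level of each tested gene in brain granulocytes and blood neutrophils, log10(CPM + 1) on the vertical axis, 1 point per young library by tissue and group, with mean ± SD of the log values. In brain Gadd45b separates the 3 groups, Nfkbia, Nfkbid and Ier3 separate stroke from sham, and Nfkbiz overlaps throughout.

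These values rest on 29 to 169 cells a library, and fitted without a low-count filter the day 2 calls of Nfkbia (adjusted p = 0.0692), Nfkbid (adjusted p = 0.119) and Ier3 (adjusted p = 0.066) were lost. Within the libraries of higher mitochondrial share all 4 day 2 calls and all 5 day 14 calls were made, with Nfkbia at 2.26 and 2.57 and Gadd45b at 3.08 and 4.59. Sums of marker genes moved as well. The summed level of 6 neutrophil marker genes was 222555 to 290324 CPM in sham, 112907 to 204835 at day 2 and 54652 to 70971 at day 14. The sum of 6 macrophage markers was 7115 to 10587, 1566 to 6868 and 1055 to 3567, that of 6 microglia markers 94.3 to 361, 65.4 to 539 and 369 to 499.8, and that of 12 immediate early genes 3902 to 5992, 8248 to 12435 and 12917 to 20782. The part of these shifts in the results was not tested. Scaled by total counts alone, without the TMM composition factors, the median of all genes moved to 0.24 at day 2 and 0.44 at day 14, and every call above was kept.

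Other genes of the pathway followed in part, by lists written with earlier results of these data known. Of 18 further NF-kB target genes, 11 were tested in granulocytes. Of these, 5 rose at day 2 (median 1.63) and 8 rose and 1 fell at day 14 (median 2.04). Of all 994 genes tested, 55 rose and 28 fell at day 2, and 129 rose and 130 fell at day 14. Tnf, the cytokine that itself activates NF-kB, went from a mean of 33.8 CPM to 565 at day 2 (3.85 ± 0.61, edgeR adjusted p = 0.000718). The chemokine gene Ccl4 went from 65.6 to 5100 at day 14 (5.85 ± 0.53, edgeR adjusted p = 3.99e-07), and Plaur, the urokinase receptor, fell by 1.41 (edgeR adjusted p = 0.0303). Between the stroke times the chemokine gene Ccl3 rose by 2.50 ± 0.54 (edgeR adjusted p = 0.00946). Of the immediate early genes 3 of 10 rose at day 2 and 7 of 10 at day 14, among them Egr1 (3.91 and 3.99). Of the upstream kinases and adaptors 2 of 14 were tested, of the other inhibitors 1 of 13 and of the subunits 0 of 7, and none was called.

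Circulating neutrophils, the blood cells of the same lineage, had no called change in the 6 genes tested, with an unadjusted p under 0.05 in 1 at day 2, 0 at day 14 and 3 between the times (4.23%, 20.3% and 17.8% of all genes), and with 0, 0 and 1 called by DESeq2. Nfkbia had 403, 466, 299.6 and 256 CPM in sham, 819, 1393, 348 and 543 at day 2 and 468, 397 and 592 at day 14. Day 2 was the higher group with 1 library inside the sham range; the log2 difference of 1.07 ± 0.31 had an unadjusted p of 0.00305 and an edgeR adjusted p of 0.951, and 0% of genes were called higher. Without the low-count filter that difference was called (1.08, edgeR adjusted p = 0.00303), as were those of Nfkbia (-1.09, edgeR adjusted p = 0.00136; DESeq2 adjusted p = 0.0484) and Nfkbiz (-0.95, edgeR adjusted p = 0.0125) at day 14 against day 2. Gadd45b had 70.5, 109, 106 and 183 in sham, 128, 126, 84.3 and 98.4 at day 2 and 181, 159 and 269.8 at day 14. Ier3 had 139.9, 134, 134 and 81.8, then 195, 102, 107 and 139, then 137, 109 and 144, and its groups lay on each other. At day 14 5.95% of genes were called against sham (2.14% higher) and 4.71% against day 2.

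Nfkbid in blood neutrophils had 17.3, 20.7, 34 and 30.7 CPM in sham, 20, 14.2, 15.6 and 22 at day 2 and 44.7, 44.6 and 55.2 at day 14. The 3 day 14 libraries lay above all others, without a call; against day 2 the difference was called without TMM factors (1.34, edgeR adjusted p = 0.0314). Nfkbiz had 146, 256, 101 and 113 in sham, 136, 411, 276 and 109 at day 2 and 172, 124 and 135 at day 14. Tnfaip3 had 0 to 3.46 CPM in sham, 1.79 to 17.3 at day 2 and 8.93 to 19.2 at day 14, which rests on 0 to 9.35 counts a library.

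Set side by side, granulocytes from brain carried more of the 6 tested transcripts than neutrophils from blood, and after stroke all 6 were called higher. Nfkb1 was below the filter, with means of 19.8 CPM in brain and 42.5 in blood at day 2, and 78.3 and 50.3 at day 14. A gene can pass that filter through the brain libraries alone. Tnfaip3 stood in blood at 1.79 to 2.22 CPM at day 2, apart from replicate 2 at 17.3. In brain the granulocytes are 1 deposited type, while in blood eosinophils and basophils are a type apart from neutrophils. That blood type had Ier3 means of 615 to 3021 CPM by group. Unlike sets of cells may thus be compared, and the part of this was not tested. At day 2 (2000 genes tested, 13.5% called, 9.15% higher) the log2 differences were 3.38 ± 0.40 for Nfkbia, 4.33 ± 0.32 for Nfkbid, 2.90 ± 0.42 for Nfkbiz, 5.86 ± 0.66 for Tnfaip3, 3.49 ± 0.32 for Gadd45b and 2.92 ± 0.35 for Ier3, with edgeR adjusted p from 1.34e-09 to 2.36e-05. At day 14 (23.4% called, 13.3% higher) they ran from 3.96 ± 0.41 for Ier3 to 5.20 ± 0.63 for Tnfaip3, with Nfkbia at 4.76 ± 0.49 and Nfkbiz at 4.26 ± 0.51. Of the further target genes 11 of 13 tested were higher at day 2 (median 5.18), among them Ccl3 at 560 against 3.95 CPM. Marker and immediate early sums differed by value with the tissue as well. The summed neutrophil markers were 112907 to 204835 CPM in brain and 169717 to 264456 in blood at day 2, and 54652 to 70971 and 112285 to 189942 at day 14. The immediate early sums were 8248 to 12435 and 4690 to 9056 at day 2, and 12917 to 20782 and 4101 to 9744 at day 14. The summed macrophage markers were 1566 to 6868 and 3444 to 11635 at day 2, and 1055 to 3567 and 6826 to 16097 at day 14. Apart at day 14 in all 3 lists, the tissues overlapped at day 2; the part of these sums in the differences was not tested.

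In sham mice (2736 genes tested, 5.08% called, 3.76% higher) 4 of 6 were called higher in brain: Nfkbia by 2.31 ± 0.38 (edgeR adjusted p = 0.000101), Nfkbid by 1.78 ± 0.45 (edgeR adjusted p = 0.0125), Nfkbiz by 3.26 ± 0.43 (edgeR adjusted p = 4.43e-06) and Tnfaip3 by 5.26 ± 0.84 (edgeR adjusted p = 7.39e-05). Gadd45b, at 0.40 ± 0.35 (edgeR adjusted p = 0.616), and Ier3, at 0.83 ± 0.33 (edgeR adjusted p = 0.154), were not called. The Nfkbid call was lost without the low-count filter (1.46, adjusted p = 0.0996), without brain sham replicate 1 (1.16, adjusted p = 0.286) and without brain sham replicate 3 (1.73, adjusted p = 0.0557). In sham the summed neutrophil markers were 222555 to 290324 CPM in brain and 198530 to 302058 in blood, and the immediate early sums 3902 to 5992 and 4443 to 6116, so that both overlapped.

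The difference between the stroke effects in brain and in blood was tested as an interaction of tissue and stroke. At day 2 (0.475% of genes called) 3 of 6 genes had a larger stroke effect in brain: Gadd45b by 3.0 ± 0.46 (edgeR adjusted p = 0.000611), Nfkbid by 2.48 ± 0.54 (edgeR adjusted p = 0.0256) and Ier3 by 1.96 ± 0.44 (edgeR adjusted p = 0.0373). At day 14 (3.40% called) 4 of 6 did: Gadd45b by 3.88 ± 0.48 (edgeR adjusted p = 4.73e-06), Ier3 by 3.0 ± 0.47 (edgeR adjusted p = 0.000151), Nfkbia by 2.32 ± 0.55 (edgeR adjusted p = 0.0106) and Nfkbid by 2.13 ± 0.55 (edgeR adjusted p = 0.0214). When single libraries were left out in turn, Ier3 at day 2 lost its call in 15 of 23 fits, Nfkbid in 7 of 23 at day 2 and 8 of 23 at day 14, Nfkbia in 2 of 23, and Gadd45b in 0 of 23 at both times. Without the low-count filter Ier3 at day 2 (1.73, adjusted p = 0.269) and Nfkbia (2.16, adjusted p = 0.119) and Nfkbid (1.97, adjusted p = 0.123) at day 14 were not called.

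**Figure D3:**
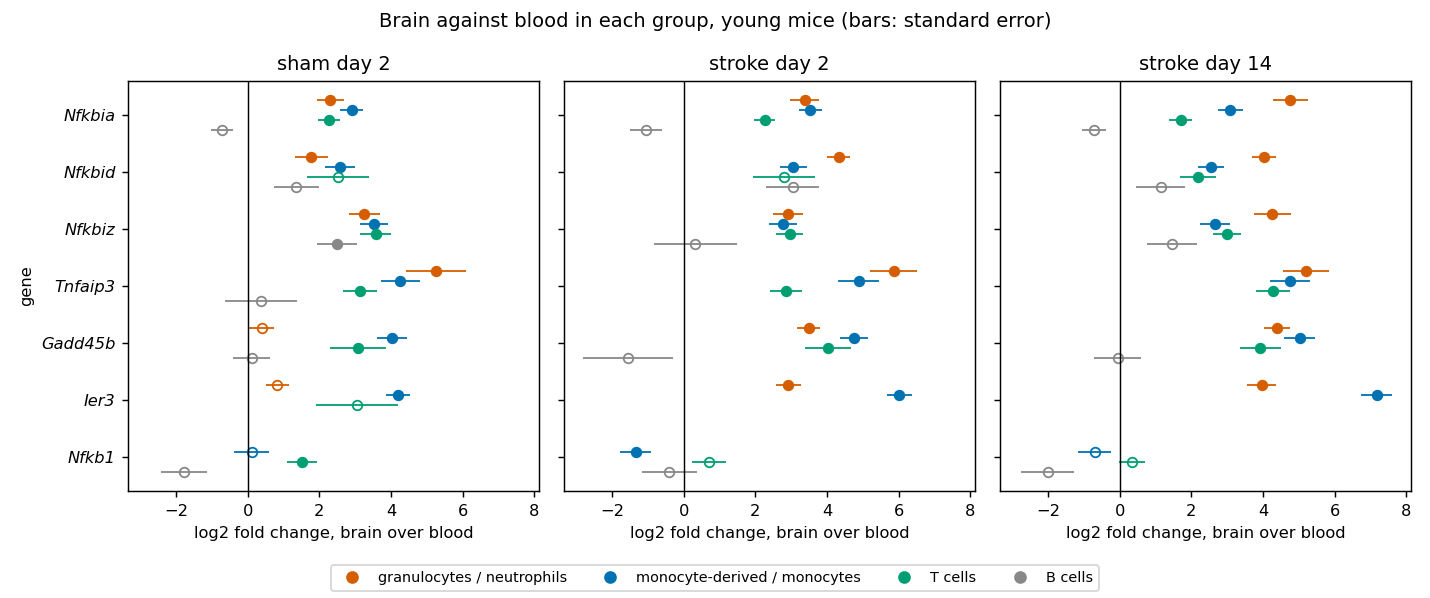
Log2 difference between brain and blood, with SE bars, for the tested genes in granulocytes, monocyte-derived cells, T cells and B cells, in panels for sham, stroke day 2 and stroke day 14; filled points are called. Nfkbia lies left of 0 in B cells, uncalled, and right of 0 in the other types, and Ier3 in monocyte-derived cells lies farthest right after stroke, at 6.02 and 7.17.

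Monocyte-derived cells, the recruited macrophages of the injured brain, had 1 called gene. Ier3 rose against sham at both times, where 6.71% of 8080 genes were called at day 2 (5.66% higher) and 5.15% at day 14 (4.21% higher), 1 of 7 genes here each time. Its levels were 630.1, 524, 686 and 867 CPM in sham, 1494, 1366, 2170 and 1314 at day 2 and 982, 888, 905 and 982 at day 14. The 3 groups did not overlap, with day 2 the highest. The log2 change was 1.75 ± 0.25 at day 2 (edgeR adjusted p = 0.000899) and 0.96 ± 0.25 at day 14 (edgeR adjusted p = 0.0338). The day 14 call is a fragile one: it was lost in 9 of 12 fits with 1 library left out (values 0.87 to 1.06) and within the libraries of higher mitochondrial share (0.88, adjusted p = 0.258), while the day 2 call was kept in every alternative run. Other cells' markers moved with the groups here too. The summed neutrophil markers were 0 to 3404 CPM in sham, 114 to 246 at day 2 and 27.7 to 112 at day 14, the microglia markers 0 to 436, 270.3 to 655 and 289 to 1807, and the immediate early genes 7074 to 9182, 6291 to 10974 and 9190 to 13359; their part in the result was not tested.

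Nfkbia in these cells had 4965, 5332, 3900 and 2441 CPM, then 5795, 3639, 4667 and 5785, then 4795, 3075, 2361 and 3209. The groups overlap. Nfkbid had 32.5 to 184 CPM in sham, 79.8 to 120.3 at day 2 and 66 to 192 at day 14. Nfkbiz had 889, 2406, 1754 and 1632 in sham, 678 to 1011 at day 2 and 534 to 1319 at day 14; 1 sham library reached down to the stroke libraries.

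Nfkb1 had 246, 111, 181 and 144 CPM in sham, 79.5, 43.5, 35.9 and 15.3 at day 2 and 84.7, 102, 25.1 and 79.7 at day 14. Every stroke library lay below every sham library, but the log2 difference of -1.62 ± 0.50 at day 2 missed the threshold (edgeR adjusted p = 0.0706). It passed with the mitochondrial grouping as a term (-1.79, edgeR adjusted p = 0.0113), with the 2 groups fitted alone (-1.70, edgeR adjusted p = 0.0432), with the replicate block (-1.55, edgeR adjusted p = 0.0231) and in DESeq2 (-1.59, adjusted p = 0.0288). Tnfaip3 ranged from 110.2 to 168 in sham, 59.6 to 187 at day 2 and 107 to 362 at day 14, and Gadd45b from 121 to 531, 375 to 741 and 473 to 889.9. Between the stroke times no gene was called (1.79% of all genes), with Ier3 at -0.79 ± 0.23 (edgeR adjusted p = 0.124; called by DESeq2, -0.83, adjusted p = 0.0063). The sham values rest on 43 to 99 cells a library against 489 to 2180 after stroke.

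The scaling bears on these cells: the median of all genes stood at 0.29 (day 2) and 0.28 (day 14) with TMM factors and at -0.13 and -0.11 without, and the day 2 Ier3 call was kept either way, while the day 14 difference fell to 0.52 without them and was no longer called (edgeR adjusted p = 0.264). None of the 18 further target genes, 7 subunit and IkB genes or 13 other inhibitors was called against sham; Zfp36, an immediate early gene whose product destabilises cytokine mRNA, rose by 1.17 ± 0.32 at day 2 (edgeR adjusted p = 0.0386).

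Blood monocytes, from which the brain cells derive, kept low levels. The groups overlapped in Nfkbia and Nfkb1, while Ier3 at day 14 lay below day 2 without overlap. None of the 6 genes tested was called by edgeR with its filter or by DESeq2, with an unadjusted p under 0.05 in 0, 1 and 1 (2.8%, 5.43% and 7.68% of all genes). Called were 0%, 0.252% and 0.534% of all genes at day 2 against sham, day 14 against sham and between the times. Ier3 had 44.3, 27.9, 38.6 and 12.3 CPM in sham, 39.7, 56.4, 21.7 and 15.6 at day 2 and 8.41, 5 and 12.3 at day 14. Day 14 was thus the lowest group, without a call (day 14 against day 2, edgeR adjusted p = 0.188); without the low-count filter Ier3 was called lower at day 14 against sham (-1.95, edgeR adjusted p = 0.0222) and against day 2 (-1.90, edgeR adjusted p = 0.0366). Nfkbia had 662, 508, 398 and 446 in sham, 508, 785, 316 and 545 at day 2 and 379, 447 and 597 at day 14. Nfkb1 had 201, 181, 72.2 and 149.7, then 117, 180.2, 175 and 71.5, then 85.5, 146 and 188. Gadd45b ranged from 9.04 to 36.7 and Tnfaip3 from 1.7 to 10.3 over all 11 libraries.

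**Figure D4:**
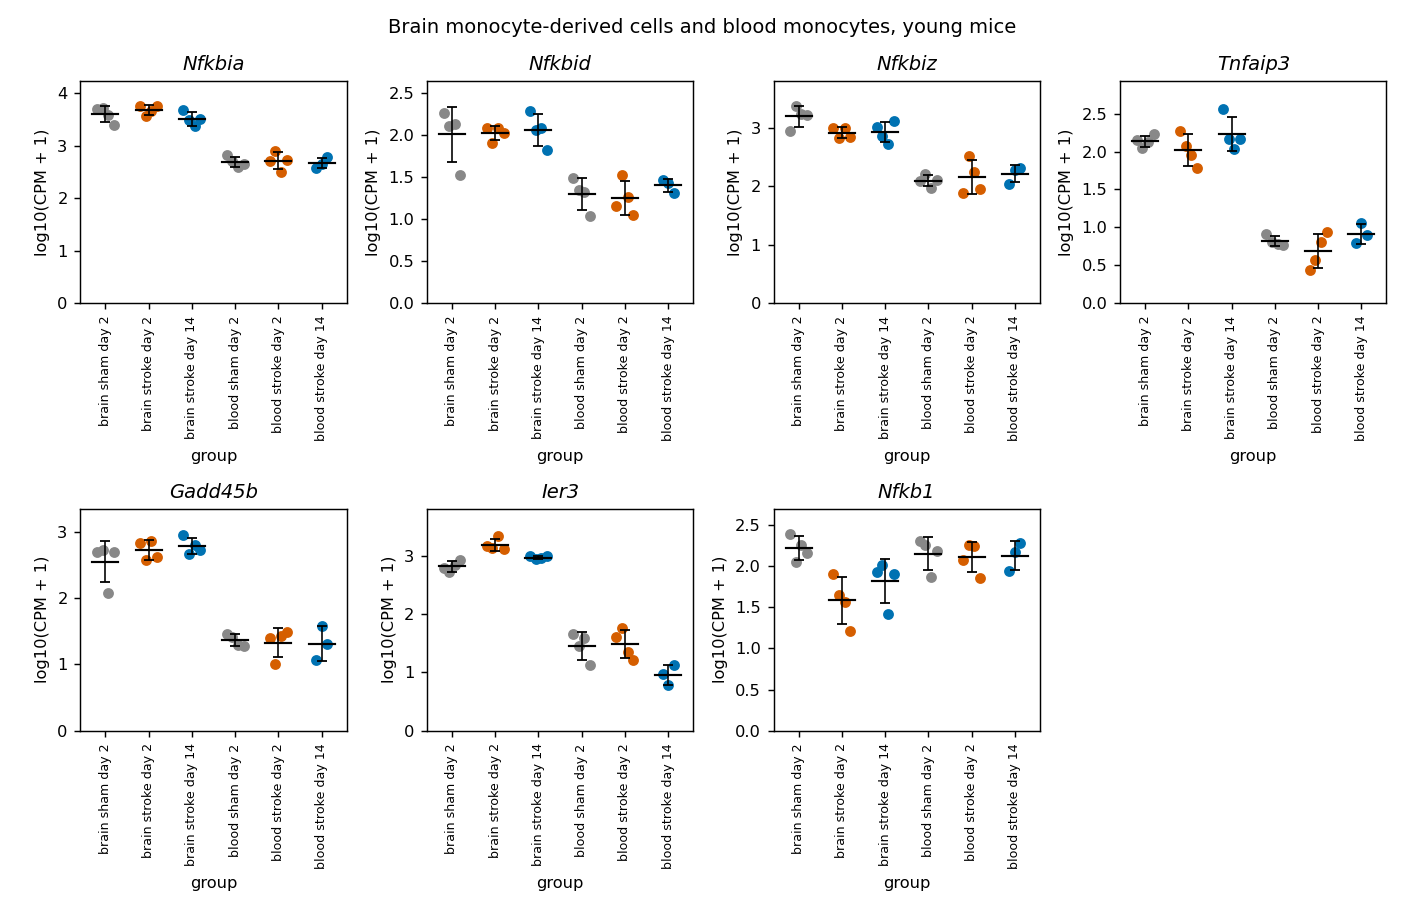
Levels in brain monocyte-derived cells and blood monocytes, log10(CPM + 1), 1 point per young library by group, with mean ± SD of the log values. Ier3 lies at 524 to 2170 CPM in brain and at 5 to 56.4 in blood, while Nfkb1 overlaps between the tissues.

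Between the tissues 6 of 7 genes were higher in brain monocyte-derived cells than in blood monocytes at day 2, on a background of 28.6% of 7651 genes called and 15.5% higher. Ier3 differed by 6.02 ± 0.35 (65-fold, edgeR adjusted p = 3.49e-08), Tnfaip3 by 4.88 ± 0.57, Gadd45b by 4.75 ± 0.40, Nfkbia by 3.54 ± 0.32, Nfkbid by 3.06 ± 0.38 and Nfkbiz by 2.77 ± 0.39. Nfkb1 was lower in brain (-1.34 ± 0.44, edgeR adjusted p = 0.0306), a call lost in 6 of 15 fits with 1 library left out. At day 14 (17.8% called, 10.5% higher) these 6 genes were higher, Ier3 by 7.17 ± 0.43 (144-fold), against blood levels that rest on 4.26 to 4.76 counts a library. In sham (7921 genes, 2.45% called, 1.75% higher) they were higher too: Ier3 by 4.20 ± 0.34, Tnfaip3 by 4.26 ± 0.54, Gadd45b by 4.03 ± 0.42, Nfkbiz by 3.52 ± 0.39, Nfkbia by 2.90 ± 0.33 and Nfkbid by 2.59 ± 0.42. Nfkb1 differed there by 0.11 without a call. The immediate early sums were higher in brain by value, at 7074 to 9182 CPM against 1574 to 2737 in sham, 6291 to 10974 against 1802 to 5302 at day 2 and 9190 to 13359 against 1517 to 2273 at day 14. The summed macrophage markers were 35359 to 44007 in brain and 38719 to 58519 in blood in sham, 25790 to 38403 and 51844 to 67868 at day 2, and 25918 to 54929 and 56113 to 68432 at day 14; the part of either sum in these differences was not tested.

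Only Ier3 had a called interaction of tissue and stroke in this lineage, 1.81 ± 0.46 at day 2 (edgeR adjusted p = 0.0286, 3.76% of genes called) and 2.90 ± 0.53 at day 14 (edgeR adjusted p = 0.00387, 1.97% called). The day 2 call was lost in 8 of 23 fits with 1 library left out, without TMM factors and with the compared groups fitted alone. The day 14 value joins changes in both tissues. From sham to day 14 mean Ier3 went from 677 to 939 CPM in brain and from 30.8 to 8.58 in blood. That blood difference rests on few counts a library and was not called by edgeR with its filter. Around these genes, 14 of 17 further target genes were higher in brain at day 2 (median 2.77), as were 10 of 12 immediate early genes and 2 of 7 subunit and IkB genes. Of all genes, 28.6% were called in this comparison and 15.5% were higher in brain. Of the kinases and adaptors upstream 4 of 10 were lower and none higher, and of the other inhibitors 1 was higher and 2 lower of 13. Zc3h12a, an RNase that degrades cytokine mRNA, was higher by 3.34 ± 0.35 (edgeR adjusted p = 3.91e-06), Nfkbie, the gene of IkB-epsilon, by 2.32 ± 0.27 (edgeR adjusted p = 1.08e-05), and Tab2, an adaptor of the kinase TAK1, was lower (-1.44 ± 0.32, edgeR adjusted p = 0.00315). Ptgs2, which encodes cyclooxygenase 2, stood at 484 CPM in brain and is listed at 0 in blood.

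Among lymphocytes, T and NK cells had several genes called higher in brain than in blood, and B cells 1. In T cells Nfkbia ranged from 965 to 2849 CPM in brain and from 248 to 461 in blood, without overlap. It was higher in brain by 2.26 ± 0.30 at day 2 (edgeR adjusted p = 0.000226), 1.70 ± 0.31 at day 14 (edgeR adjusted p = 0.0025) and 2.27 ± 0.31 in sham (edgeR adjusted p = 6.95e-05). In all, 4 of 6 genes were called higher at day 2 (5.77% of 4801 genes called), 5 of 6 at day 14 (7.25%) and 5 of 7 in sham (3.75% of 5099). Tnfaip3 (2.85, 4.28 and 3.14), Gadd45b (4.02, 3.93 and 3.07) and Nfkbiz (2.96, 3.0 and 3.57) were called each time, Nfkbid at day 14 (2.18; by DESeq2 also at 2.93 at day 2 and 2.64 in sham, adjusted p = 0.0377 and 0.0447) and Nfkb1 in sham (1.52 ± 0.41, edgeR adjusted p = 0.0363). With 1 library left out the sham calls of Nfkb1 and Gadd45b were lost in 6 and 5 of 22 fits and the day 14 call of Nfkbid in 3 of 14; Nfkb1 was also lost without the filter, at a minimum of 50 cells and with the replicate block (1.53, adjusted p = 0.0525). No interaction of tissue and stroke was called for them in T cells (0.0196% of genes at either time).

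NK cells gave Nfkbia at 3.28 ± 0.37, Nfkbiz at 3.69 ± 0.74 and Tnfaip3 at 3.57 ± 0.81 higher in brain at day 2 (3 of 4 genes, 1.33% of 2036 called) and at 2.57, 2.60 and 2.91, respectively, at day 14 (3 of 4, 4.27%). Of all 2036 genes, 20 were called higher in brain at day 2 and 62 at day 14. The brain NK cells were 55 in 2 libraries at day 2 and 341 in 3 libraries at day 14. Tnfaip3 at day 2 lost its call in 10 of 12 fits with 1 library left out, and Nfkbiz in 2 of 12. The Tnfaip3 call was also lost in DESeq2 (3.68, adjusted p = 0.0502) and with the replicate block (3.27, edgeR adjusted p = 0.173). Dendritic cells at day 14 had 5 genes higher in brain, Gadd45b by 4.72 ± 0.47, Nfkbid by 4.09 ± 0.66, Ier3 by 3.90 ± 0.74, Nfkbia by 2.89 ± 0.41 and Nfkbiz by 2.77 ± 0.46, and Nfkb1 lower (-1.06 ± 0.29, edgeR adjusted p = 0.0487), where 5.89% of 7340 genes were called. The Nfkb1 call was lost in 6 of 12 fits with 1 library left out, and those of Ier3 (3.39, adjusted p = 0.0898) and Nfkbid (3.58, adjusted p = 0.05) without blood day 14 replicate 2. Tnfaip3 was called higher in brain by DESeq2 (2.74, adjusted p = 0.0496), without the filter (2.84, edgeR adjusted p = 0.0368) and with the replicate block (2.77, edgeR adjusted p = 0.00251). Macrophage markers were higher in blood by value: their sum in these cells was 31775, 18031 and 19879 CPM in the 3 blood libraries and 4151 to 6100 in the 4 brain libraries. The dendritic cell markers summed to 1780 to 2426 in blood and 1033 to 2072 in brain, and the immediate early genes to 1182 to 1962 and 6290 to 9865; the part of these sums in the tissue differences was not tested.

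In B cells the tissues overlapped: Nfkbia ranged from 291 to 893 CPM in brain and from 565 to 755 in blood. The brain B cells at day 2 were 50 in 2 libraries. No gene of the set was called at day 2 (0.0146% of 6845 genes called) or day 14 (0.497%), where 2 and 3 of 5 (12.3% and 13.7% of all genes) had an unadjusted p under 0.05 in edgeR, and in sham Nfkbiz was higher by 2.50 ± 0.55 (edgeR adjusted p = 0.018; 1.00% of 8161 genes). That call was lost without brain sham replicate 2 (2.42, adjusted p = 0.0879) or 3 (1.49, adjusted p = 0.308), and DESeq2 gave Nfkbiz no adjusted p. By DESeq2 Nfkbia was called lower in brain B cells at -0.88 in sham and -1.12 at day 2 (adjusted p = 0.00982 and 0.0374), and Nfkbid was called higher at day 2 without the filter (2.78, edgeR adjusted p = 0.0366), with compared groups alone (3.15, edgeR adjusted p = 0.0477) and without TMM factors (3.83, edgeR adjusted p = 0.0482). The median log2 difference of all genes in B cells was -0.54 in sham, -0.81 at day 2 and -0.39 at day 14 with TMM factors, and -0.08, -0.04 and 0.03 without them. That T and NK cells differ from B cells in this was not tested. Sums over other gene lists also differed between the tissues by value. The summed immediate early genes were 1810 to 4099 CPM in brain and 374 to 1279 in blood T cells, 2581 to 4606 and 453 to 1567 in NK cells, and 1707 to 4973 and 685 to 1886 in B cells. The summed macrophage markers were 967 to 2728 and 637 to 1251 in T cells, 1529 to 2345 and 1027 to 1894 in NK cells, and 354 to 1610 and 265 to 972 in B cells. The ranges were apart for the immediate early genes of T and NK cells and overlapped otherwise; the part of either list in these differences was not tested.

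In microglia, the resident macrophages, most of the genes spread widely between libraries of one group, and 1 of 7 was called in each comparison. At day 2 31.4% of 10145 genes were called against sham (15.7% lower), and of the set Nfkb1. With these 2 groups fitted alone Nfkbiz (-2.16, edgeR adjusted p = 0.0291) and Tnfaip3 (-1.42, edgeR adjusted p = 0.0493) were called lower too, and Nfkbiz was called higher at day 14 against day 2 with the mitochondrial grouping as a term (3.05, edgeR adjusted p = 0.0284). Nfkb1 had 123, 106, 138 and 181 CPM in sham, 80.2, 60.5, 25.8 and 32.9 at day 2 and 94.9, 92.6, 51.1 and 105 at day 14. Every day 2 library lay below every sham library. The log2 change was -1.12 ± 0.31 (edgeR adjusted p = 0.0145), lost without sham replicate 4 (-0.87, adjusted p = 0.0669) or day 2 replicate 4 (-0.90, adjusted p = 0.0577), and -1.74 (edgeR adjusted p = 0.00252) within the libraries of higher mitochondrial share. Day 2 is represented there by replicates 3 and 4 alone. Replicate 3, the lowest of day 2 in Nfkb1, has few microglia and microglia markers summing to 817 CPM.

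Nfkbia ran from 623 to 2029 CPM in sham (1040, 2029, 2013, 623), from 276 to 1292 at day 2 (395, 276, 1292, 1092) and from 464 to 3884 at day 14 (3884, 464, 909.7, 1595). Nfkbiz had 171, 949, 1882 and 285, then 73.4, 61, 378 and 268, then 1410, 130.1, 387 and 1609. Ier3 had 428, 796, 1154 and 372, then 184, 159, 643 and 491, then 870.4, 248, 485 and 849. Libraries tended to be high or low in these 3 genes together: sham replicates 2 and 3 and day 14 replicates 1 and 4 were high, and sham replicate 4, day 2 replicates 1 and 2 and day 14 replicate 2 were low. Of the high libraries, sham replicates 2 and 3 and day 14 replicate 4 have the higher mitochondrial share and day 14 replicate 1 the lower. Of the low ones, day 2 replicates 1 and 2 and day 14 replicate 2 have the lower share and sham replicate 4 the higher. At day 2, replicates 1 and 2 lay below replicates 3 and 4 in all 3 genes. The part of this grouping in the spread was not tested.

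The summed immediate early genes ran alike, with 6829, 12496, 17307 and 3616 CPM in sham, 1453, 1132, 4608 and 5457 at day 2 and 20087, 2480, 5708 and 9307 at day 14. Their part in the levels of the set was not tested. Day 2 replicate 3 has 58 microglia and its summed microglia markers are at 817 CPM, against 9815 to 21335 CPM in sham and at day 14. The macrophage marker sum was 233 to 399 CPM in sham, 520.2 to 4254 at day 2 and 2125 to 3074 at day 14, whose part was not tested either.

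Gadd45b had 66.5, 124, 102 and 52.7 CPM in sham, 65.3, 23, 404 and 186 at day 2 and 568, 80, 226 and 261 at day 14. It was called at day 14 against sham, 2.16 ± 0.65 (edgeR adjusted p = 0.04, 15.2% of genes called, 10.6% higher), with day 14 replicate 2 inside the sham range. Tnfaip3 had 67.4, 69.9, 125 and 23.4 in sham, 8.3, 11.4, 33.2 and 37.3 at day 2 and 539.7, 32.9, 54.6 and 107 at day 14. It was called between day 14 and day 2, 3.33 ± 0.91 (edgeR adjusted p = 0.0421, 6.94% of genes called, 3.47% higher).

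With the replicate block both calls were lost (Gadd45b 1.88, edgeR adjusted p = 0.0794, and Tnfaip3 2.74, edgeR adjusted p = 0.0989). Both calls also depend on single libraries. Gadd45b lost its call in 7 of 12 fits with 1 library left out, down to 1.58 without day 14 replicate 1 (adjusted p = 0.126), and kept it within the libraries of higher mitochondrial share (1.82, edgeR adjusted p = 0.000614). Tnfaip3 lost it in 10 of 12, with 1.85 without day 14 replicate 1 (adjusted p = 0.128), 4.41 without day 2 replicate 4 (adjusted p = 0.0702) and 1.21 within those libraries (adjusted p = 0.177). Within them Gadd45b was also called at day 2 against sham, at 1.49 (edgeR adjusted p = 0.00511). The day 2 libraries there are replicates 3 and 4. Replicate 3, the highest of day 2 in this gene, is the library with few microglia and with microglia markers at 817 CPM. Nfkbid had 35.7 to 80 CPM in sham, 24.1 to 88.5 at day 2 and 35.2 to 210.4 at day 14.

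**Figure D5:**
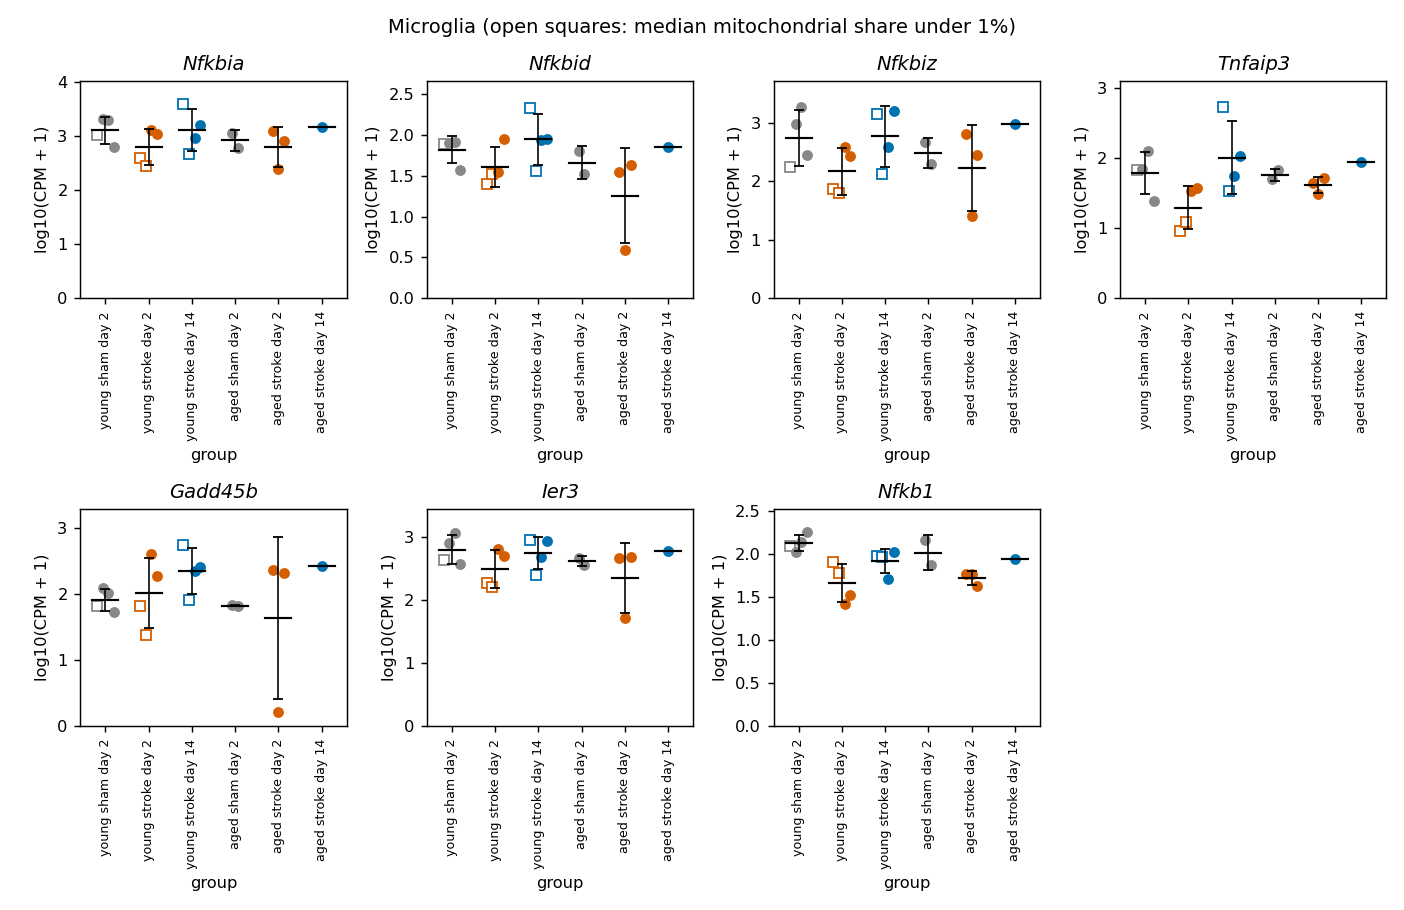
Levels in microglia, log10(CPM + 1), 1 point per young or aged library by group, with mean ± SD of the log values; open squares are the young libraries with a median mitochondrial share of 0.235 to 0.559%. Nfkb1 separates young sham from young day 2, and the other genes spread widely within the young groups.

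Among related genes in microglia at day 2, Rel, the gene of the c-Rel subunit, went from 163.5 to 59.0 CPM (-1.44 ± 0.36, edgeR adjusted p = 0.00975) and Tab2 from 355 to 112.5 (-1.34 ± 0.38, edgeR adjusted p = 0.0177). Of the 7 subunit and IkB genes 1 rose and 1 fell, of the 14 kinases and adaptors 2 fell, and of 12 other inhibitors tested 1 rose and 4 fell. Of all genes, 31.4% were called at day 2 and 15.7% were lower. Commd1, an inhibitor that promotes removal of NF-kB from chromatin, rose by 1.42 ± 0.20 (edgeR adjusted p = 0.00028) and Tax1bp1, a partner of A20, fell (-1.14 ± 0.41, edgeR adjusted p = 0.0477). Of the 15 target genes tested 2 rose at day 2 (median 0.69) and 7 at day 14 (median 1.89), beside 1588 and 1071 of all 10145 genes. The chemokine gene Ccl5 was at 1.5, 80.4 and 274 CPM in sham, day 2 and day 14. Relb, the gene of a noncanonical subunit, rose by 1.13 ± 0.34 at day 14 (edgeR adjusted p = 0.0383).

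Border-associated macrophages, the macrophages of the brain's linings, had 1 called gene of 6 tested, Nfkbiz at day 2 (2.67% of 1313 genes called, 0.914% lower). It went from 961, 2485, 4723 and 3921 CPM in sham to 445, 437, 969.8 and 898 at day 2, and had 2562, 1288, 1673 and 4575 at day 14. One day 2 library, at 969.8, lay above the lowest sham library. The change of -2.14 ± 0.52 (edgeR adjusted p = 0.042) was lost in 7 of 12 fits with 1 library left out and within the libraries of higher mitochondrial share (-2.04, adjusted p = 0.0806). The summed immediate early genes of these cells were 11389 to 17063 CPM in sham, 3535 to 12546 at day 2 and 8715 to 25347 at day 14, whose part was not tested. At day 14 against sham no gene was called, where 0.0762% of all genes were, nor between the times (0.838%), where Nfkbiz was called higher by DESeq2 (1.96, adjusted p = 0.0189) and with the mitochondrial grouping as a term (2.04, edgeR adjusted p = 0.0408).

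Endothelial cells gave no call in the 5 genes tested, where 13.4% of 5834 genes were called at day 2, 0% at day 14 against sham and 11.2% between the times. An unadjusted p under 0.05 was reached by 1, 0 and 3 of the 5, beside 29.8%, 6.07% and 26.5% of all genes, and DESeq2 called 0 in each. Nfkbia had 2245, 1884, 1424 and 1323 CPM in sham, 1175, 1157, 1237 and 1640 at day 2 and 1842, 2381, 2589 and 1440 at day 14, and Ier3 426 to 981, 399 to 513 and 548 to 1066. Day 14 lay above day 2 in Ier3 without overlap, at 0.61 ± 0.28 (edgeR adjusted p = 0.181). Within the libraries of higher mitochondrial share Nfkb1 was called at day 2, at -1.56 (edgeR adjusted p = 0.0345). In the remaining parent types no gene of the set was called by edgeR between young groups; an unadjusted p under 0.05 was reached at most by 2 genes in a comparison, and by 1.7% to 15.1% of all genes. DESeq2 called Nfkbiz lower in brain dendritic cells at day 2 (-1.68, adjusted p = 0.0135). There the share of all genes called was 1.01% (day 2 against sham), 1.53% (day 14 against sham) and 0.893% (between the times) in brain dendritic cells, 0%, 0.0954% and 0% in brain T cells, 0% in brain B and NK cells and blood T and NK cells, 0%, 0.0115% and 0.0115% in blood B cells, and 1.48% in blood dendritic cells at day 14 against sham.

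In aged mice 3 of the genes rose in granulocytes at day 2. Nfkbia had 1469 (female) and 1727 (male) CPM in sham, 17755, 8314 and 9690 at day 2 (female 1, female 2, male) and 5002 in the single day 14 library. Gadd45b had 479.7 and 299, then 2369, 1586 and 1185, then 2330, and Ier3 125 and 417, then 1664, 1446 and 943, then 0. The day 14 library holds 21 granulocytes and entered no test, so its values, the 0 among them, rest on few cells. Sham and day 2 did not overlap in these 3 genes. They were called at 2.65 ± 0.47 for Nfkbia (edgeR adjusted p = 0.00353), 1.87 ± 0.48 for Gadd45b (edgeR adjusted p = 0.0395) and 1.97 ± 0.54 for Ier3 (edgeR adjusted p = 0.049), 3 of 6 tested, where 3.14% of 1401 genes were called. All 3 calls were lost when either aged sham library was left out, with Nfkbia then at 2.49 and 2.85. Such a fit has 1 aged sham library and takes its spread from the other groups. The Ier3 call was also lost with sex as a covariate (2.03, edgeR adjusted p = 0.0629) and in 10 of 13 fits with 1 library left out. Its values ran from 1.34 without the female sham library to 3.14 without the male one. The Gadd45b call was lost in 4 of 13. Summed neutrophil markers were at 295637 and 300448 CPM in sham and at 117104 to 143137 at day 2, and their part in these results was not tested.

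In aged monocyte-derived cells 5 of 7 genes were called higher at day 2 than in sham (2.56% of 8167 genes): Nfkbia by 2.46 ± 0.56 (edgeR adjusted p = 0.0289), Nfkbid by 3.52 ± 0.91 (edgeR adjusted p = 0.0476), Tnfaip3 by 3.01 ± 0.78 (edgeR adjusted p = 0.0481), Gadd45b by 3.03 ± 0.66 (edgeR adjusted p = 0.0235) and Ier3 by 2.84 ± 0.50 (edgeR adjusted p = 0.00709). Nfkbia had 1801 and 1179 CPM in sham, 7308, 2379 and 6080 at day 2 and 1987 at day 14, and Ier3 192 and 524, then 2235, 966 and 1627, then 404. The aged sham values rest on 52 and 33 cells. In fits with 1 sham library, 4 of the 5 calls were lost without the male one and all 5 without the female one (Ier3 2.56). The median of all genes was 0.44 there and -0.22 without TMM factors, under which Nfkbia, Nfkbid, Tnfaip3 and Gadd45b lost their calls. Over the 13 fits with 1 library left out, Tnfaip3 lost its call in 11 and Nfkbid in 9; Tnfaip3 was also lost with sex as a covariate (3.03, adjusted p = 0.0596) and Nfkbid in DESeq2 (3.60, adjusted p = 0.0797). Over all alternatives they ran from 2.27 to 10.32 and from 2.65 to 9.86. DESeq2 called Nfkbiz higher as well (1.92, adjusted p = 0.00292).

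Whether stroke acted differently by age was tested as an interaction at day 2, and none of the set, and 0% of all genes, was called in microglia, granulocytes, monocyte-derived cells or endothelial cells. In monocyte-derived cells 5 of 7 genes, and 5.78% of all genes, had an unadjusted p under 0.05 for it, with a median of 2.12 beside 0.15 over all genes. Young libraries were all male, while the aged groups held both sexes in unequal numbers and carry other file codes. Age thus cannot be told apart here from sex or from other differences between the young and aged libraries. Aged endothelial cells had no call of the set at day 2 (0.606% of genes). Aged microglia had no call at day 2 (2.32% of 11096 genes), with Nfkb1 at -1.02 ± 0.38 (edgeR adjusted p = 0.188). Their second female day 2 library was the lowest in several genes, with Nfkbia at 242 CPM against 822 and 1220 in the other two, Nfkbiz at 24.3 and Gadd45b at 0.656.

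Over 27 means of brain type and young group, from 10 parent types, the genes most alike each member were ranked among 9166 genes by Pearson's r of log2(CPM + 10), a description of points that share libraries. Nfkbia was nearest to Ptgs2 (0.876), Nfkbid to Neurl3 (0.896), Nfkbiz to Ptpre (0.865), Nfkb1 to Ap3b1 (0.763), Tnfaip3 to Fgl2 (0.866), Gadd45b to Il1rn (0.859) and Ier3 to Ralb (0.895). Within the set Nfkbia and Gadd45b had 0.822, Tnfaip3 and Nfkbiz 0.816, Nfkbid and Ier3 0.001, and Nfkb1 lay between -0.261 and 0.380 with the other 6.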

How the data were processed

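Each library came as a gene-by-cell table and a table of cell annotations. Per the values in the deposited files, the counts are expected counts, fractional estimates per gene and cell, with no scaling or correction stated. By library, 0.00866% to 4.47% of nonzero values were whole numbers. The values alone cannot show whether they were scaled or corrected before deposit. Sums at or near 0 and the tests of counts rest on these fractional values. For the steps before deposit, the submitters' processing notes name Seurat and mm10. The aligner, the source of the fractions and any doublet removal are not given in the sources used here. The deposited percent of mitochondrial counts per cell was used to describe libraries. Cell types are the authors' deposited parent types. The members and gene lists were chosen with earlier results of these data known.

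Counts were summed per library and parent type over all deposited cells and rounded for testing. Types with at least 20 cells in a library and at least 2 libraries a group entered edgeR 4.0.16 (R 4.3.3; filterByExpr, TMM, quasi-likelihood F test, Benjamini-Hochberg over all genes, called under 0.05); SE is the log2 change divided by the square root of F. All young groups of a type shared one fit, aged groups one fit with young sham and day 2, and brain and blood one fit over the genes in both. Blocking by replicate number was an alternative. Not every same-numbered pair deviated together (correlation over 0.1 in 4 to 6 of 12 pairs in the 4 brain types checked and 4 to 6 of 10 in the 4 blood types), so the numbers were not taken as pairing. In blood, sham and stroke day 2 replicates 1, and likewise replicates 2, carry the same code in their file names, and correlated at 0.35 and 0.18 in neutrophils and at 0.19 and 0.23 in monocytes. The tests were checked on simulated counts. Orders of types used exact sign-flip permutation tests, two-sided, on log2(CPM + 1). Other alternatives were DESeq2 1.42.0, no filter, library size without TMM, a minimum of 50 cells, removal of cells above the 98th percentile of counts, compared groups only, sex as a covariate, and leaving out each library; the mitochondrial grouping was added after seeing the data. Besides the 7 genes, the named genes were the called gene with the highest and the one with the lowest change of each list at a mean of at least 20 CPM, chosen from 5 lists, and the 3 genes most alike each member, of which the first is given. Python 3.11.15, numpy 2.4.6, pandas 2.3.3 and scipy 1.17.1 were used.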

Additional observations from a re-analysis of the deposited data

Results flagged for a closer look

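Single libraries stood apart from the other 3 or more of their group in 9 of 112 groups tested by Dixon's criterion, which flags about 1 in 20 groups by chance. In microglia, Nfkbid was at 35.7 CPM in sham replicate 4 (others 75.6 to 80) and at 88.5 in day 2 replicate 4 (others 24.1 to 34.4), and Tnfaip3 was at 539.7 in day 14 replicate 1 (others 32.9 to 107). In endothelial cells, Nfkbid was at 1.86 in sham replicate 2 (others 0) and Nfkbia at 1640 in day 2 replicate 4 (others 1157 to 1237). In monocyte-derived cells, Gadd45b was at 121 in sham replicate 3 (others 492 to 531) and Tnfaip3 at 362 in day 14 replicate 1 (others 107 to 146). In blood neutrophils, Ier3 was at 81.8 in sham replicate 4 (others 134 to 139.9) and Tnfaip3 at 17.3 in day 2 replicate 2 (others 1.79 to 2.22).

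The stroke effect differed between brain and blood, by edgeR's test of the interaction, in 9 results. In granulocytes against neutrophils these were Nfkbid (2.48), Gadd45b (3.0) and Ier3 (1.96) at day 2 and Nfkbia (2.32), Nfkbid (2.13), Gadd45b (3.88) and Ier3 (3.0) at day 14. In monocyte-derived cells against monocytes they were Ier3 at day 2 (1.81) and day 14 (2.90).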

How the results depend on the processing

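Of 95 called results for single genes of the set, 62 kept their call in every alternative run for their comparison and 0 changed direction. The mitochondrial grouping was run only for comparisons between young brain groups. Counts of called genes per comparison moved by over 1.5 times under these alternatives. In microglia, 1 gene at day 2 against sham became 3 with the compared groups fitted alone and 2 in the libraries of higher mitochondrial share; 1 at day 14 against sham became 0 without TMM; 1 at day 14 against day 2 became 0 without cells above the 98th percentile, with compared groups alone and in the libraries of higher mitochondrial share, and 2 with that grouping as a term. From 0, endothelial cells at day 2 gave 1 in the libraries of higher mitochondrial share, and monocyte-derived cells between the stroke times 1 with DESeq2. Monocyte-derived cells at day 2 against sham gave 2 in place of 1 with DESeq2, compared groups alone, the replicate block and the mitochondrial grouping as a term, and at day 14 against sham 0 in place of 1 without the filter, without TMM, at 50 cells, with compared groups alone, with the block and in the libraries of higher mitochondrial share. Border-associated macrophages at day 2 gave 0 in place of 1 without the filter, at 50 cells, without cells above the 98th percentile, with the block and in those libraries, and between the times 1 in place of 0 with DESeq2 and with the grouping as a term. Brain dendritic cells at day 2 gave 1 in place of 0 with DESeq2 and with compared groups alone. Aged granulocytes gave 1 in place of 3 without the filter and with compared groups alone, and aged monocyte-derived cells 1 in place of 5 without TMM and with compared groups alone. Brain against blood, B cells at day 2 gave 1 in place of 0 with DESeq2, without the filter, without TMM and with compared groups alone, and in sham 2 in place of 1 without the filter; with compared groups alone NK cells at day 2 gave 1 in place of 3 and neutrophils in sham 2 in place of 4. The interaction in monocyte-derived cells at day 2 gave 0 in place of 1 without TMM and with compared groups alone, and that in neutrophils at day 14 2 in place of 4 without the filter. Without the filter, brain granulocytes gave 1 in place of 4 at day 2 and 0 in place of 1 between the stroke times, blood neutrophils 1 in place of 0 at day 2 and 2 in place of 0 between the times (1 with DESeq2 and 1 without TMM), blood monocytes 1 in place of 0 at day 14 against sham and against day 2, and brain granulocytes, border-associated macrophages and the smaller types together 6 in place of 11. The cause was not tested.

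With the replicate block, microglia gave 0 at day 14 against sham and 0 between the stroke times in place of 1 each, monocyte-derived cells 2 in place of 1 at day 2 and 0 in place of 1 at day 14 against sham, and border-associated macrophages 0 in place of 1 at day 2; granulocytes at day 2 gave 5 in place of 4, and no other count moved by over 1.5 times. The labels do not say what a number shares; 2 pairs of blood libraries share a file code (sham and stroke day 2, replicates 1 and 2), and blood neutrophils and monocytes at day 2 against sham gave 0 with the block.

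With single libraries left out, the counts ranged from 0 to 2, 0 to 1 and 0 to 2 in microglia (day 2 and day 14 against sham, and between the times), from 1 to 2, 0 to 1 and 0 to 0 in monocyte-derived cells, from 3 to 5, 5 to 5 and 0 to 1 in brain granulocytes, from 0 to 1 in blood neutrophils between the times, from 6 to 7 in monocyte-derived cells against monocytes at day 2, at 6 in granulocytes against neutrophils, at 0 in endothelial cells, blood monocytes and aged microglia, and from 5 to 14, beside 6, for separated neighbours in the order of types. Depth limits the aged groups, in which 2 sham and 3 day 2 libraries carry the comparisons and the 1 day 14 library carries none. It also limits granulocytes, at 29 to 169 cells a young brain library and 21 in the aged day 14 library. Tnfaip3 and Ier3 in blood monocytes are limited by a few counts a library.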
